A study of Homo sapiens with 12 samples.

Results

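Actins and small actin-binding proteins were followed as a set of 10 genes, chosen by name, out of 58302 genes listed in the study's expression table. The set holds both cytoplasmic actins (ACTB and ACTG1), the monomer-binding proteins profilin 1 (PFN1), thymosin beta-4 (TMSB4X) and thymosin beta-10 (TMSB10), the severing protein cofilin 1 (CFL1), the myosin light chain MYL6, tropomyosin 1 (TPM1), and the transgelins TAGLN and TAGLN2. The study asked which mRNAs carry N4-acetylcytidine (ac4C), an acetylated cytidine laid down by the enzyme NAT10, in colorectal cancer cells. All 12 libraries were made from the established colorectal cancer line DLD1 (human) at passage 5, in 4 groups of 3: cells labelled shNC (control short hairpin RNA) or shNAT10 (short hairpin RNA against NAT10), each as input RNA and as RNA immunoprecipitated with an ac4C antibody. The labels name no drug and no second cell line. They do not say how many hairpins or clones were used, or whether replicates were separate cultures. The p-values below therefore cannot be read as measuring the spread between hairpins, clones or separate cultures. For single genes they rest mostly on the spread, between these libraries, of genes of like level. The expression table held the 6 input libraries, and the immunoprecipitates were described only through the authors' deposited table of peaks.

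Actin monomers assemble into filaments that carry cell shape, adhesion and movement. Profilin brings monomers to growing filament ends, beta-thymosins hold monomers in reserve, and cofilin severs old filaments, while tropomyosin lines the filament and MYL6 is a light chain of the myosin that pulls on it. ACTB and ACTG1 are made in nearly every cell and are widely used as reference genes; TAGLN (SM22), an actin-bundling protein, is a classical marker of differentiated smooth muscle, and TAGLN2 is its relative in many non-muscle cells. Transcription of many of these genes is driven by serum response factor, which binds a motif called the CArG box.

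Promoter windows from RefSeq (GRCh38.p14), running from 250 bases before to 50 after a gene start, were given for 8 of the 10 genes in 10 windows. The CArG box, searched on both strands, was found in 1 of those genes, ACTG1, and in 454 of all 35116 windows, or 1.29%. The stretch around it is shown because it is the only such match among the genes with a window. ACTB and TAGLN had no window, so their promoters were not searched. It lies at chr17:81512874-81512903 on the minus strand, with the box in capitals from 94 to 85 nt before the gene start.
ACTG1: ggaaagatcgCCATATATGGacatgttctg
A match of letters is a description of this window and was not linked to any measurement here.

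Several properties of the libraries bear on every value below. The shNC inputs held 2599850 to 2717228 fragments on genes and the shNAT10 inputs 1208516 to 1285554, counts recovered from the deposited FPKM (fragment counts scaled by gene length and by a total per library). That total, also recovered, was 3284599 to 3426872 in shNC and 1389633, 1498313 and 1197889 in shNAT10 replicates 1 to 3. In shNAT10 replicate 3 it was below the fragments on genes, so it is not a total that holds all of them. Group differences in FPKM depend on this total. NAT10 itself was at 1.24, 3.95 and 2.89 FPKM in shNC replicates 1 to 3 and at 0, 28.1 and 31.4 in shNAT10 replicates 1 to 3, so the hairpin's target was higher, not lower, in shNAT10 replicates 2 and 3, and groups are therefore called by their labels only. Levels were patchy: of 7006 genes with at least 100 fragments in a shNC library, 2954 (42.2%) were listed at 0 in another shNC library, and in the shNAT10 libraries this held for 2193 of 4656 (47.1%). Markers of colorectal epithelium were uneven. Of 14 listed, the keratin gene KRT8 was the highest, at 3112, 3774 and 3294 FPKM in shNC and 5643, 5573 and 5866 in shNAT10. The keratin genes KRT19 and KRT18 averaged 1211 and 714 FPKM over the 6 libraries. On the same list, CEACAM5 and TFF3 were at 0 in all 6 libraries and KRT20 reached 0.158 FPKM at most. Whether counting used strand is not given in the sources used here: of 620 genes paired by symbol with an antisense RNA, the antisense RNA was the higher in 242 (39.0%). MT-ND6, the mitochondrial mRNA encoded on the strand opposite to the others, was the highest of 13, at a mean of 7840 FPKM. Which strand a listed level counts is therefore not known and was not tested. Any level below may hold reads from the other strand, in part or for the most part.

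No difference between the groups passed the test for any of the 10 genes. The test was a limma fit on log2(FPKM + 1) over 10517 genes with a mean of at least 1 FPKM, with Benjamini-Hochberg adjustment and a threshold of 0.05; it called 0.19% of genes (20), with 0.0856% higher and 0.105% lower in shNAT10, none of them among 8140 protein-coding genes (0.0%). All 10 genes entered it, and 0 of 10 had an unadjusted p under 0.05, against 3.7% of all genes. On this scale the median difference, shNAT10 minus shNC, was 0.25 over the 10 genes, with 7 above 0, and -0.49 over all genes tested, with 4338 (41.2%) above 0. TAGLN is among the 7 and entered the test only through its shNAT10 values. The 10 genes together held 2815 ± 166 FPKM in shNC and 3786 ± 781 in shNAT10 (SD, n = 3). These sums depend on the total used for FPKM. On the TPM scale (FPKM rescaled to an equal sum in each library), differences of the most abundant members were 0.0053 for ACTG1, -0.061 for ACTB and 0.72 for TMSB10.

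**Figure D1:**
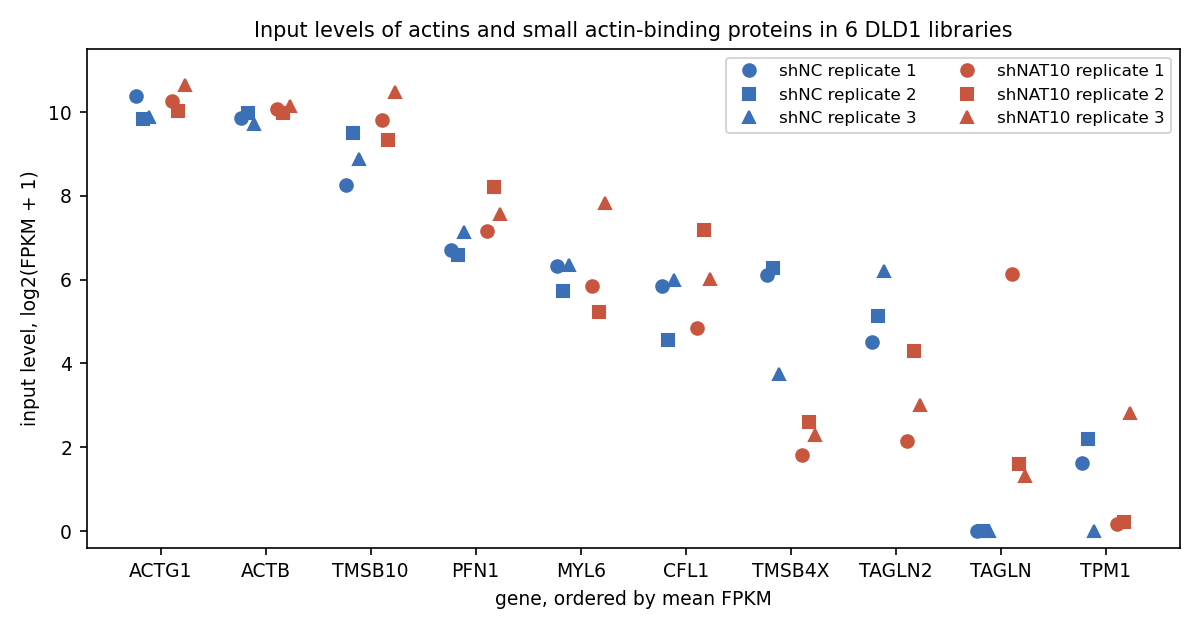
Input levels, as log2(FPKM + 1), of the 10 genes (x axis, ordered by mean FPKM over the 6 input libraries); each point is 1 library, blue for shNC and red for shNAT10, with the symbol giving the replicate. ACTG1 and ACTB keep all 6 libraries close together at the top, TMSB4X and TAGLN2 separate with shNC above, and TAGLN sits at 0 in every shNC library.

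Both cytoplasmic actins were abundant and steady. ACTB (ENSG00000075624) was at 931, 1005 and 841 FPKM in shNC and at 1080, 1000.3 and 1135 in shNAT10, backed by 4428 to 10743 fragments per library. The groups overlapped, since shNAT10 replicate 2 lay below shNC replicate 2. ACTB averaged 925 ± 82.1 FPKM in shNC and 1072 ± 67.9 in shNAT10 (SD, n = 3), a log2 difference of 0.21 (SE 0.48, 95% interval -0.74 to 1.16, limma adjusted p = 0.888), and it turned to -0.061 on the TPM scale and -0.17 after quantile normalization.

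ACTG1 (ENSG00000184009), which encodes an almost identical protein, was at 1324, 917 and 942 FPKM in shNC and at 1237, 1034 and 1603 in shNAT10. Its groups overlapped as well, with shNC replicate 1 above shNAT10 replicates 1 and 2. The means were 1061 ± 228 and 1291 ± 289 FPKM (SD, n = 3), a log2 difference of 0.28 (SE 0.45, limma adjusted p = 0.821) that was -0.11 after quantile normalization, 0.11 without shNAT10 replicate 3 and 0.45 without shNC replicate 1. ACTG1 was above ACTB in 5 of 6 libraries, and the log2 ratio of ACTG1 over ACTB stayed between -0.13 and 0.51. Because the genes are so alike in coding sequence, reads that the counting split between them make each level less certain than their sum, which was 1783 to 2256 FPKM in shNC and 2034 to 2738 in shNAT10.

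The steadiness of the actins, of ACTB above all, stood out against the patchiness of the table. The highest of 6 libraries was 1.35 times the lowest for ACTB and 1.75 times for ACTG1, and these were the 2 of the 10 genes within a 2-fold range. Of all 10517 genes tested, 45 (0.428%) stayed within that range; ACTB ranked 3 and ACTG1 ranked 23. Abundant genes were steadier in general: 27 of 143 genes with a mean of at least 500 FPKM (18.9%) did so, and among them ACTB ranked 2 and ACTG1 ranked 15. The coefficient of variation of ACTB was 8.87% in shNC and 6.33% in shNAT10, beside medians of 25.3% and 38.8% for those 143 genes and of 130% and 158% for all genes tested. That of ACTG1 was 21.5% and 22.3%, near the median of the 143 genes in shNC and below it in shNAT10. By this range, other genes in common use as references were less steady than the actins. GAPDH had the narrowest range of the 17 reference genes listed, with its highest library at 2.03 times its lowest, followed by RPL13A at 2.21 times. HPRT1, a purine salvage enzyme, varied far more, at 0, 0.375 and 0.359 FPKM in shNC and at 157, 227 and 0 in shNAT10. TBP, a general transcription factor, had fragments in 1 of 6 libraries alone, at 6.55 FPKM.

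In order of mean level, ACTG1 (1176 FPKM) and ACTB (999) were followed by TMSB10 (744), PFN1 (161), MYL6 (88.4), CFL1 (62.9), TMSB4X (28.0), TAGLN2 (26.2), TAGLN (12.1) and TPM1 (2.01). Only between TMSB10 and PFN1 did the 6 libraries of neighbouring genes not overlap. The order at the low end is one of pooled means: TMSB4X was above TAGLN2 in 2 of 6 libraries, and TAGLN above TPM1 in 2 of 6. The actins together made up 70.5% ± 6.60 of the summed FPKM of the 10 genes in shNC and 62.9% ± 3.78 in shNAT10 (SD, n = 3).

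The monomer-binding proteins differed in the sign of their group differences, none of which passed the test. TMSB4X (ENSG00000205542) was at 67.8, 76.1 and 12.5 FPKM in shNC and at 2.53, 5.09 and 3.92 in shNAT10, from 391, 426 and 73 fragments against 6, 13 and 8. Every shNAT10 library lay below every shNC library, although shNC replicate 3 was nearer to the shNAT10 libraries than to the other shNC libraries. The shNC mean, 52.1 ± 34.6 FPKM, was 13.6 times the shNAT10 mean, 3.85 ± 1.28 (SD, n = 3), and the log2 difference of -3.13 (SE 1.69, 95% interval -6.46 to 0.19) did not pass, with a limma adjusted p of 0.754; it was -3.94 without shNC replicate 3. In bulk RNA, fewer cells with a transcript and less of it per cell cannot be told apart.

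TMSB10 (ENSG00000034510), the close relative of TMSB4X, was at 305, 724 and 472 FPKM in shNC and at 894, 642 and 1431 in shNAT10. shNAT10 replicate 2 lay below shNC replicate 2, so the groups overlapped. The shNAT10 mean, 989 ± 403 FPKM (SD, n = 3), was 1.98 times the shNC mean, whose SD was 211 FPKM, and the log2 difference was 0.99 (SE 0.57, 95% interval -0.13 to 2.12, limma adjusted p = 0.754). Within each library the log2 ratio of TMSB10 over TMSB4X, a pair chosen after its values were seen, was 2.15, 3.23 and 5.13 in shNC and 7.98, 6.72 and 8.19 in shNAT10. The ratio was thus higher in 3 of 3 shNAT10 libraries than in any shNC library, a difference in means of 4.13 that is given as a description, with no test.

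PFN1 (ENSG00000108518) was at 104, 96.1 and 141 FPKM in shNC and at 142, 296 and 190 in shNAT10. The groups did not overlap, but shNC replicate 3 and shNAT10 replicate 1 were nearly equal. Its shNAT10 mean, 209 ± 78.8 FPKM, was 1.84 times its shNC mean, 114 ± 24.0 (SD, n = 3), a log2 difference of 0.83 (SE 0.96, limma adjusted p = 0.754) that was 0.55 without shNAT10 replicate 2 and 0.34 without shNAT10 replicates 2 and 3. On the opposite strand, 179 nt away, lies ENO3, the muscle enolase gene, which was higher than PFN1 in 6 of 6 libraries, at 523, 360 and 498 FPKM in shNC and 1005, 316 and 581 in shNAT10; its part in the PFN1 values was not tested.

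CFL1 (ENSG00000172757) was at 56.4, 22.5 and 63.2 FPKM in shNC and at 28.0, 144 and 63.4 in shNAT10. The groups overlapped: shNAT10 replicate 1 lay below 2 of the shNC libraries, and replicates 2 and 3 above all of them, replicate 3 only just. The log2 difference of 0.55 (SE 1.30, limma adjusted p = 0.895) was -0.035 without shNAT10 replicate 2. SNX32, a sorting nexin gene 971 nt away, exceeded CFL1 in 6 of 6 libraries and averaged 13.7 times its level. The part of either gene in the values of the other was not tested.

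The contractile members had no common direction within the shNAT10 group. MYL6 (ENSG00000092841) was at 79.1, 51.9 and 80.4 FPKM in shNC and at 56.2, 36.3 and 226 in shNAT10, where replicate 3 was above all shNC libraries and replicate 2 below them. Its log2 difference was 0.16 (SE 1.19, limma adjusted p = 0.974) and turned to -0.60 without shNAT10 replicate 3, -0.04 without shNC replicate 2, and -0.11 on the TPM scale and after quantile normalization. TPM1 (ENSG00000140416) was at 2.08, 3.61 and 0 FPKM in shNC and at 0.115, 0.160 and 6.08 in shNAT10, from 88, 148 and 0 fragments against 2, 3 and 91. Each group thus held both near-empty and filled libraries, and the log2 difference of -0.21 (SE 1.67, limma adjusted p = 0.976) changed sign in 6 alternatives. The antisense RNA TPM1-AS, which overlaps TPM1 on the other strand, was the higher in 5 of 6 libraries, averaging 11.4 times the TPM1 level. The part of TPM1-AS in the TPM1 values was not tested.

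TAGLN differed from the actins in level and in spread, though its spread was not unusual for the table. Its coefficient of variation in shNAT10 was 161%, beside a median of 158% for all genes tested. TAGLN (ENSG00000149591) had no fragment in shNC replicates 1, 2 or 3 and stood at 68.9, 2.04 and 1.49 FPKM in shNAT10, from 375, 12 and 7 fragments. The groups did not overlap, but shNAT10 replicate 1 alone held nearly all of the signal. Of 10517 genes tested, 48 (0.456%) were at 0 in all shNC and above 0 in all shNAT10 libraries, and 248 (2.36%) showed the reverse. A shNC library with 3 fragments, taken as the upper limit for a count of 0 under counting error alone, would have shown 0.223 to 0.233 FPKM. The levels of shNAT10 replicates 2 and 3 lay above that limit. It leaves out the patchiness of the libraries, in which 42.2% of genes with at least 100 fragments in a shNC library were at 0 in another. The zeros therefore do not show that TAGLN was absent from the shNC cells. The log2 difference was 3.02 (SE 1.82, 95% interval -0.57 to 6.61, limma adjusted p = 0.754); it depends on the pseudocount, being 5.95 with 0.1 and 9.22 with 0.01, and without shNAT10 replicate 1 the gene fell below the filter.

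TAGLN2 (ENSG00000158710), the non-muscle relative, had a difference of the opposite sign. It was at 21.7, 34.0 and 72.6 FPKM in shNC and at 3.47, 18.5 and 7.05 in shNAT10, so that every shNAT10 library lay below every shNC library. The shNC mean, 42.8 ± 26.6 FPKM, was 4.42 times the shNAT10 mean, 9.68 ± 7.86 (SD, n = 3), with a log2 difference of -2.13 (SE 1.62, 95% interval -5.31 to 1.06, limma adjusted p = 0.754). Non-overlapping groups were thus seen for 2 members that were higher in shNAT10 (PFN1 and TAGLN) and for 2 that were lower (TMSB4X and TAGLN2), beside 2.89% and 6.72% of all genes tested. TAGLN, at 0 in every shNC library, entered the test only through its shNAT10 values. Its direction was thereby fixed by the filter, and its place in this count supports no difference.

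**Figure D2:**
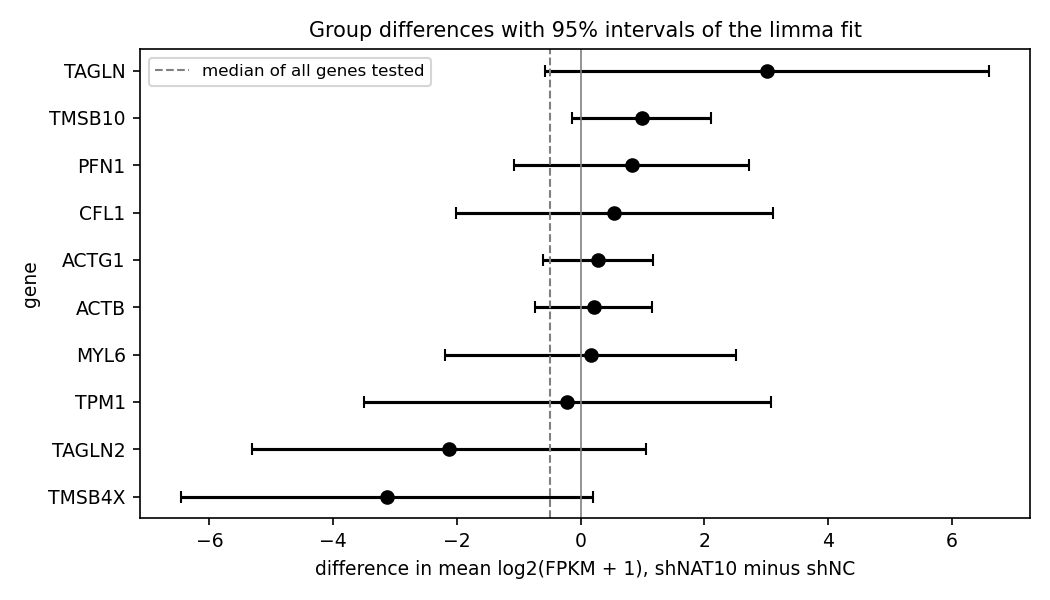
Difference in mean log2(FPKM + 1), shNAT10 minus shNC (x axis), for each of the 10 genes (y axis), with bars for the 95% interval of the limma fit over 3 libraries a group; the dashed line marks the median of all genes tested (-0.49). Every interval includes 0, and the actins have the narrowest ones. The width of an interval rests mostly on genes of like level, not on the gene's own libraries.

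Set within each library, TAGLN was far below the housekeeping actin in shNC and came nearer to it in 1 shNAT10 library. The log2 ratio of TAGLN over ACTB, with 1 FPKM added to both, was -9.86, -9.97 and -9.72 in shNC, where it only restates the ACTB level, and -3.95, -8.36 and -8.83 in shNAT10. All 3 shNAT10 libraries lay above all 3 shNC libraries, but replicate 1 was the one that lay far from the rest. The difference was 2.80 (exact two-sided permutation p = 0.1, the smallest that 3 against 3 libraries can give) and 1.25 without shNAT10 replicate 1. Because TAGLN was at 0 in shNC, the pseudocount sets its size: it was 5.73 with 0.1 and 9.01 with 0.01. The ratio of TAGLN over TAGLN2 was -4.51, -5.13 and -6.20 in shNC and 3.97, -2.68 and -1.69 in shNAT10, and TAGLN exceeded TAGLN2 in 1 library, shNAT10 replicate 1; the difference was 5.14 (exact two-sided permutation p = 0.1) and 3.09 without that library, 8.23 with a pseudocount of 0.1 and 11.52 with 0.01. The ratio of ACTG1 over ACTB differed by 0.07 (exact two-sided permutation p = 0.8). Over these 3 ratios, the Benjamini-Hochberg adjusted permutation p was 0.15 for both TAGLN ratios and 0.8 for ACTG1 over ACTB.

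**Figure D3:**
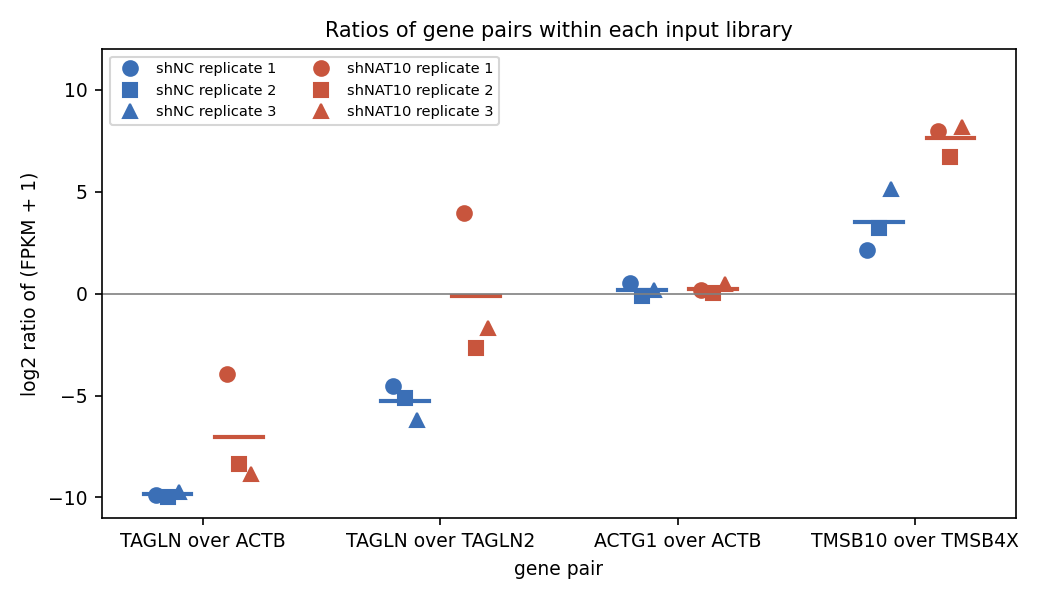
Log2 ratio of (FPKM + 1) within each input library (y axis) for 4 gene pairs (x axis), blue for shNC and red for shNAT10, symbols for replicates and short lines for the mean of 3 libraries. ACTG1 over ACTB lies near 0 in both groups, whereas TAGLN over ACTB and TAGLN over TAGLN2 are spread by shNAT10 replicate 1 (-3.95 and 3.97).

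Other smooth muscle markers were low and did not share one pattern. Of 10 smooth muscle markers, TAGLN included, 4 were abundant enough to test (TAGLN, MYH11, ACTA2 and CALD1) and 0 passed. TAGLN and CALD1 had higher, non-overlapping shNAT10 libraries, as did 2.89% of all genes tested, but both entered the test only through their shNAT10 values. CALD1 (caldesmon), which also has a non-muscle form, was highest in the same library as TAGLN, at 0.991, 0 and 0.652 FPKM in shNC and 9.28, 2.64 and 1.19 in shNAT10. DES (desmin), too low to test, also did not overlap, at 0 in every shNC library and 0.292, 0.271 and 4.74 FPKM in shNAT10. Those values rest on 1, 1 and 14 fragments, and its highest library was shNAT10 replicate 3. MYH11 (smooth muscle myosin) was at 10.8, 6.98 and 6.63 FPKM in shNC and at 0, 4.64 and 13.6 in shNAT10, so it was listed at 0 in the library with the most TAGLN. ACTA2 (smooth muscle actin) was at 3.67, 0 and 0 FPKM in shNC and at 0, 22.0 and 1.40 in shNAT10. ACTG2, CNN1 and LMOD1 were at 0 in that library and also at or near 0 in the others, with 2.89 FPKM at most. Without TAGLN, the other 9 markers summed to 7.12 to 15.7 FPKM in shNC and to 9.58, 29.7 and 24.8 in shNAT10 replicates 1 to 3, with 7 of the 9 at 0 in replicate 1, where CALD1 made up nearly all of the sum.

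Markers of other cell types were summed in the same way. Fibroblast markers reached 31.6 to 43.3 FPKM in shNC and 82.1 to 203 in shNAT10, with 3 of 11 at 0 in all 6 libraries. PDGFRB, a pericyte and fibroblast receptor, resembled TAGLN, with 0 in every shNC library and 7.97, 0.561 and 0 FPKM in shNAT10. VIM (vimentin) was at 0, 1.12 and 6.34 FPKM in shNC and 0, 0.129 and 78.0 in shNAT10, and FN1 (fibronectin), which carcinoma cells can also express, at 43.2, 30.4 and 33.8 and at 96.5, 81.1 and 118. The collagen gene COL1A1 was at 0 in shNC and 0.43 FPKM at most in shNAT10. The epithelial list, 14 markers with 2 at 0 in all 6 libraries, summed to 5277 to 5386 FPKM in shNC and 8293 to 8657 in shNAT10, mostly KRT8. EPCAM, an epithelial adhesion molecule on the same list, lay the other way without overlap, at 226, 369.7 and 262 FPKM in shNC and 38.3, 80.3 and 128 in shNAT10, a log2 difference of -1.92 (limma adjusted p = 0.754). The leukocyte list, with 6 of 9 at 0 in all 6 libraries, summed to 0 in shNC and 0.521 to 5.86 in shNAT10, and the endothelial and erythroid list, with 5 of 7 at 0, to 0 and 0 to 1.44. The part of these lists in the TAGLN values was not tested.

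By the root mean square difference of log2(FPKM + 1) over the 6 libraries, the genes nearest to ACTB were RPL19 (0.16), a ribosomal protein gene, SNX32 (0.31) and ACTG1 (0.31). RPL19 had a narrower range over the 6 libraries than ACTB (highest 1.24 times the lowest), though not a lower coefficient of variation in shNAT10 (8.62%), with 838, 931 and 907 FPKM in shNC and 1036, 871 and 965 in shNAT10. The genes nearest to TAGLN were PHKG2 (0.39), CRIPT (0.52) and PARP3 (0.57), which encode a phosphorylase kinase subunit, a postsynaptic-density binding protein and a poly(ADP-ribose) polymerase family member. Because these 3 genes were chosen by nearness over the same 6 libraries, a shared high library follows from the choice. In shNAT10 replicate 1 they stood at 46.4, 81.2 and 54.8 FPKM, and elsewhere at 5.99 at most.

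Other genes of the actin system were read from 6 lists that together held 97 genes without the 10 described above. Of these, 80 were tested, 0 passed the test and 0 had an unadjusted p under 0.05; 42 had a difference above 0, with a median of 0.03 beside -0.49 for all genes tested. Groups did not overlap for 3 higher and 2 lower genes (6.25%, beside 9.61% of all genes tested in either direction). None of the lists had a member past the test: this covers other actins and actin-related proteins (5 of 8 tested, median difference 1.19), nucleators and the Arp2/3 complex (16 of 19, -0.50), turnover and capping proteins (16 of 21, -0.24), nonmuscle myosin and tropomyosin (17 of 17, -0.07), crosslinkers and membrane linkers (19 of 21, 0.38), and serum response factor, its cofactors and targets (10 of 14 in the table, 0.20).

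The most abundant tested member of each list showed how wide the spread was beside that of the actins. ACTR1B, a dynactin actin-related protein, ranged from 0.307 to 78.2 FPKM over the 6 libraries. ARPC3, an Arp2/3 subunit, was at 14.9, 70.9 and 57.0 FPKM in shNC and 0.714, 0 and 88.6 in shNAT10. CAP1, which recycles actin monomers, was at 29.7, 16.6 and 19.6 in shNC and 27.9, 123 and 7.44 in shNAT10. In each of these, a single shNAT10 library lay above the other 5. MYL12B, a myosin regulatory light chain, went from 0 to 415 FPKM within shNAT10 alone. CNN2, a non-muscle calponin, went from 2.56 to 148 within shNAT10. EZR (ezrin), which ties filaments to the membrane, was the steadiest of these, at 145, 53.2 and 114 FPKM in shNC and 159.99, 75.5 and 202 in shNAT10, and its antisense RNA EZR-AS1 was at 2158 to 3604 FPKM in shNC and 2338 to 7717 in shNAT10. Among 17 reference genes 17 were tested, 0 passed and the median difference was 0.11; RPL13A, the most abundant of them, was at 861, 574 and 650 FPKM in shNC and 757, 751 and 389 in shNAT10.

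Pseudogenes can share reads with these genes. Of 62 listed pseudogenes named after them, 5 were above 0 in any library, among them PFN1P6 at 193 FPKM in shNC replicate 1, where PFN1 was at 104, and ACTG1P10 at 128 FPKM in shNAT10 replicate 1. No TAGLN pseudogene was among the 5, and TAGLN2P1 was at 2.84 FPKM in shNAT10 replicate 3.

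The authors' deposited table of peaks listed ac4C-enriched regions in 4 of the 10 genes, both actins and both thymosins, with 5 peaks in all. PFN1, CFL1, MYL6, TPM1, TAGLN and TAGLN2 had none there. Of all genes tested 15.4% had a peak, and of the 584 with a mean of at least 100 FPKM, 14.7%; the other actin pathway genes had one in 32 of 80 (40%). Genes with a peak were longer, with a median recovered length of 5568 nt against 3279 nt over all genes tested and 7620.5 against 4253.5 nt over the pathway genes, while the 4 genes described here had 2340.5 nt against 4263 nt for the 6 without. The table holds 2364 differential peaks between the groups on GRCh38, with no value per library. It does not state which group is the numerator of its log2 change, so signs below have no settled direction.

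In the authors' deposited table, ACTB had a peak at chr7:5529085-5529324 on the minus strand, classed as exon, with a fold enrichment of 4.02, a log2 change of -1.42 and 4 sites of the CXX-repeat motif that the table lists. ACTG1 had a peak at chr17:81509971-81510150 on the minus strand, classed as 3′ UTR, with a fold enrichment of 3.31, a log2 change of -1.91 and 1 site. A second ACTG1 peak, classed as coding sequence, was listed at chr17:81510804-81511135, in blocks of 30 and 209 nt, with a fold enrichment of 1.56, a log2 change of -1.86 and 3 sites, 1 of them (at 81510904) between the blocks. All 3 actin peaks had a fold enrichment below the median of 10.5 of all peaks. They were near or below the 3.6 of peaks in genes with a mean of at least 500 FPKM, a set that includes them. Only the ACTB peak exceeded that value. Among all genes tested, 2.85% had more than 1 peak, as ACTG1 did.

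The thymosin peaks lay near opposite ends of the list by size of change. In the authors' deposited table, TMSB10 had a peak at chr2:84906084-84906675 on the plus strand, classed as 3′ UTR, in blocks of 34 and 287 nt, with a fold enrichment of 9.47, a log2 change of -0.527 and 1 site. TMSB4X had a peak at chrX:12976244-12976838 on the plus strand, classed as exon, in blocks of 118 and 62 nt, with a fold enrichment of 163, a log2 change of 11.2 and 1 site. By the size of its change the TMSB4X peak ranked 14 of 2364 and the TMSB10 peak 2350. By the significance of the peak itself the order was turned, with TMSB10 at rank 4, ACTB at rank 9, the ACTG1 peaks at ranks 46 and 58, and TMSB4X at rank 401. TMSB4X was also the one of the 4 genes whose input groups did not overlap, at 2.53 to 5.09 FPKM in shNAT10; the part of the low input in its peak values was not tested.

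**Figure D4:**
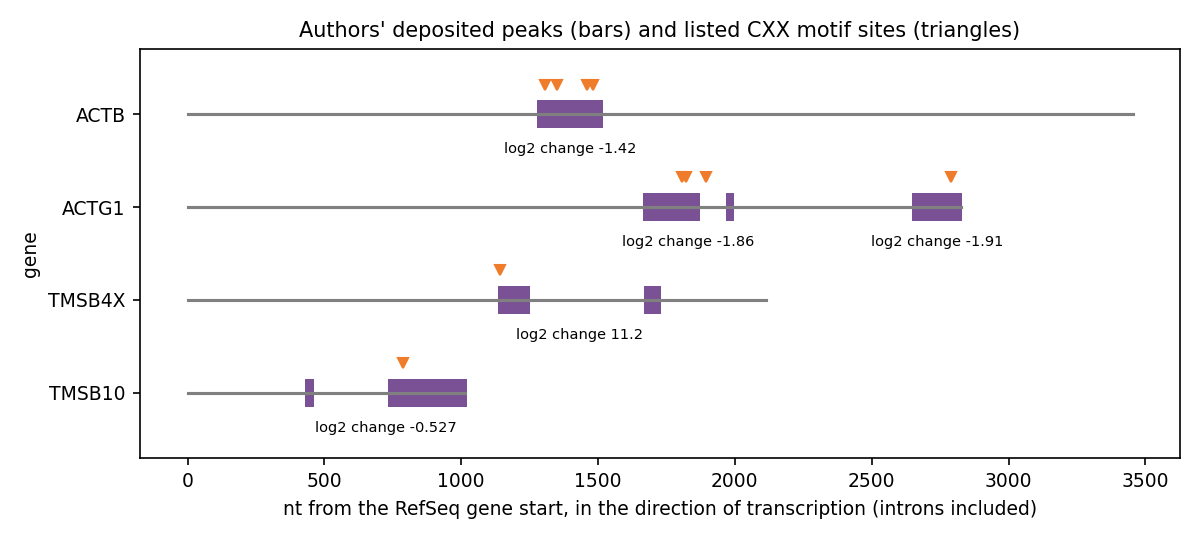
Deposited peaks (bars, 1 per block) and listed CXX sites (triangles) along ACTB, ACTG1, TMSB4X and TMSB10 (y axis), by distance in nt from the RefSeq gene start in the direction of transcription (x axis, introns included), with the deposited log2 change under each peak. The 5 peaks lie away from the gene starts, and TMSB4X carries the only positive change (11.2).

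Small changes went with high input levels in the table as a whole. Of all 2364 deposited peaks, 1459 (61.7%) had a negative change, the median size of change was 4.81 on the log2 scale, and 171 (7.23%) had a size under 2. In genes with a mean of at least 500 FPKM, 14 of 28 peaks (50%) had a size under 2 and 23 were negative. These 28 peaks include those of ACTB, ACTG1 and TMSB10, which were all under 2 and negative. The shares are therefore not independent of these peaks, and the other peaks of abundant genes were not counted apart.

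**Figure D5:**
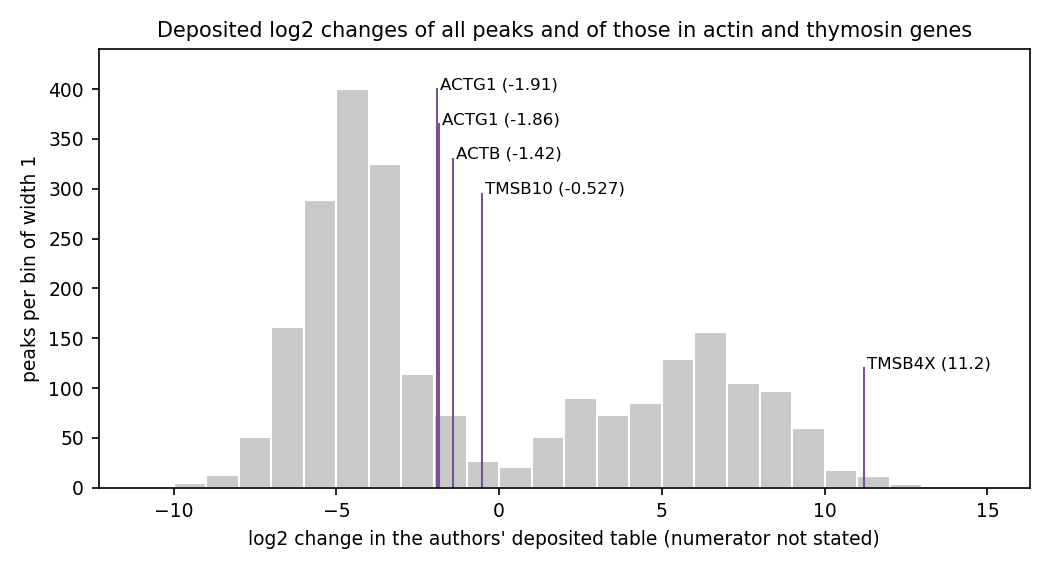
Number of deposited peaks (y axis) per bin of width 1 of the deposited log2 change (x axis, numerator not stated), grey for all 2364 peaks, with lines at the 5 peaks in ACTG1, ACTB, TMSB10 and TMSB4X. The ACTG1, ACTB and TMSB10 peaks fall in the sparse range between the larger changes (-1.91 to -0.527), and the TMSB4X peak lies at the far positive end (11.2).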

How the data were processed

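Per the submitters' processing notes, cutadapt 2.5, HISAT2 2.1.0 and HOMER 4.10.4 were used, with GRCh38 and GRCm38 named as builds and no roles stated; the RNA (100 µg) was cut to 100 to 200 nt and sequenced as 150 bp pairs, per the labels' protocols. The authors deposited FPKM for 6 input libraries and a peak table with a fold (ratio) enrichment, a log2 change, motif sites, p-values and their log10, a column held here as a score because it runs far below 0; the peak caller is not given in the sources used here. The rule for counting, and its use of strand, are not given in the sources used here. The shNC columns were matched by title and the shNAT10 columns by their names, the only ones left; 0 sample columns were unmapped. Immunoprecipitated libraries were not analysed here as expression values.

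Fragment counts were recovered from the deposited FPKM values as whole multiples (tolerance 0.001 of a fragment) for 15012 of 15014 genes above 0; the scale rests on the lengths of 13 mitochondrial mRNAs. Log2(FPKM + 1) was fitted with limma 3.58.1 in R 4.3.3 (lmFit, eBayes with trend) over genes with a mean of at least 1 FPKM; with a prior of 212.6 degrees of freedom, a gene's SE rests mostly on genes of like level. The fit was tested on simulated data. Ratios were tested by exact permutation (scipy 1.17.1). Alternatives changed the pseudocount, filter, scaling, moderation, replicate block and libraries; a voom fit on the recovered fragments, the fit without shNAT10 replicates 2 and 3 and the TMSB10 to TMSB4X ratio were added after seeing the data, as was the 1000 nt window for neighbouring genes. The members and lists were chosen with earlier results of these data known. Named genes were NAT10, the 10 members, per list the genes past the test or else the most abundant, and the 3 genes nearest to ACTB and to TAGLN; HPRT1, TBP, neighbouring genes, pseudogenes and markers were named after their values were seen. Names and neighbours came from RefSeq (GRCh38.p14).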

Additional observations from a re-analysis of the deposited data

How the results depend on the processing

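In 17 alternatives, giving 168 fits of the 10 genes, 0 passed the test; the lowest adjusted p was 0.108, for TAGLN without shNAT10 replicates 2 and 3. PFN1, TMSB4X, TMSB10, TAGLN and TAGLN2 kept their direction in every alternative in which they were tested; TAGLN and TPM1 were each not tested in 1. Differences that turned were, on the TPM scale, ACTB -0.061 and MYL6 -0.11; after quantile normalization, ACTB -0.17, ACTG1 -0.11, MYL6 -0.11 and TPM1 0.87; with a pseudocount of 0.01, TPM1 0.26 and NAT10 -0.23; with voom, MYL6 -0.064 and TPM1 0.092; and without shNAT10 replicates 2 and 3, CFL1 -0.61, MYL6 -0.29, NAT10 -1.81, CNN2 0.25 and RPL13A 0.14. With 1 library left out, differences ran from 0.11 to 0.45 for ACTG1, 0.55 to 1.08 for PFN1, -3.94 to -2.69 for TMSB4X, -0.035 to 1.13 for CFL1, -0.60 to 0.70 for MYL6, -1.09 to 0.25 for TPM1, -0.51 to 1.42 for CAP1, -3.16 to 1.19 for MYL12B, -1.63 to 1.06 for CNN2 and -0.34 to 0.14 for RPL13A. The sign turned for CFL1, CAP1 and CNN2 without shNAT10 replicate 2, for MYL12B without shNAT10 replicate 1, for RPL13A without shNAT10 replicate 3, for MYL6 without shNAT10 replicate 3 or shNC replicate 2 (-0.04), and for TPM1 without shNC replicate 2 or shNAT10 replicate 1 (0.24) or 2 (0.21). The ratio of ACTG1 over ACTB ran from -0.089 (without shNC replicate 2) to 0.23 and was -0.059 without shNAT10 replicate 3; that of TMSB10 over TMSB4X ran from 3.45 to 4.94. Genes past the test numbered 20, and 7 with a pseudocount of 0.01, 0 with no filter (340 at an unadjusted limma p under 0.05), 10 with a mean of at least 5 FPKM, 0 without shNAT10 replicates 2 and 3 (1139 unadjusted), 143 with voom, and 1 to 34 with 1 library left out (1 without any one shNC library). The calls split 9 higher to 11 lower, 7 to 14 on the TPM scale, 9 to 7 with median ratio scaling 7 to 16 after quantile normalization (medians of all genes -0.74, -0.47 and -0.08) and 23 to 120 with voom. Replicate numbers did not pair the libraries (correlations of deviations 0.0012, -0.0214 and 0.0146); with the replicate number as a block 21 genes passed and 0 of the 10 genes here. PFN1 also stayed within a 2-fold range without shNAT10 replicate 2. Where an alternative changed a result, the cause was not tested. The shNAT10 libraries held 1208516 to 1285554 fragments, so a gene at a few FPKM rests on few fragments there.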
